A study of Mus musculus with 18 samples.

Results

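Skin that had been repeatedly tape-stripped was compared between mice given an oral winged bean extract and mice not given it. The comparison rests on 12 of the 18 arrays of the series, 6 per group, chosen by their titles. All mice were male hairless HR-1 animals, 6 weeks old, and each array holds total RNA of dorsal skin. Mice of the TS group had cellophane tape pulled off the left side of the back in 3 sessions a week over 4 weeks, until water loss through the epidermis reached 70 to 100 g/m2/h. Mice of the TS_WB group had the same stripping plus an oral dose of the extract (200 mg/kg/day, dissolved in 0.3% carboxymethylcellulose), given on 5 occasions a week over 5 weeks, of which 1 week preceded the stripping. The labels do not say whether TS mice received the vehicle. The untreated group (NT, 6 arrays), neither stripped nor dosed, is used below as a reference level. Its arrays also enter the estimate of spread, the choice of varying and brightest probe sets, and a comparison of TS with NT. The arrays are titled as biological replicates, and the labels do not say whether animals were pooled, so p-values measure the spread between these samples.

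Tape stripping removes corneocytes and opens the barrier to water. Keratinocytes answer such damage with the stress keratins Krt6a, Krt6b, Krt16 and Krt17, with alarmins and antimicrobial proteins, and with faster renewal of the cornified envelope, the cross-linked protein shell of the dead outer cells, whose shedding is timed by kallikrein proteases. Winged bean (Psophocarpus tetragonolobus) is a tropical legume. Keratin-associated proteins and hair keratins, which build the hair shaft, mark follicles in their growth phase, as do the keratins of the inner root sheath. Hairless mice keep only malformed follicle remnants after the first coat is lost.

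Each Affymetrix probe set gives 1 value per array on a log2 scale, and differences are TS_WB minus TS on that scale. The base of the logarithm was inferred from the values, so no folds are given. A gene is said to rise or fall where limma, fitted to all 18 arrays, gave a Benjamini-Hochberg adjusted p under 0.05 over the 11946 non-control probe sets that ranged by at least 0.01 over the 18 arrays. The other 33091 of 45037 probe sets hardly vary and give no information. The varying ones name 7443 genes, of which 2191 have 2 or more varying probe sets. Array medians were 6.93 to 6.94 in TS and 6.90 to 6.91 in TS_WB, and no background reading accompanies the values, so sizes are uncertain where the lower group lies near or under those medians. Skin identity was plain in both groups: the suprabasal keratin Krt10 stood at a median of 14.10 in TS and 14.21 in TS_WB.

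The probe sets that read the ends of the beta-actin, Gapdh and 18S control transcripts separated the groups completely. For beta-actin the values at the 3' end differed by less than the spread between arrays, at 13.47 ± 0.06 in TS and 13.49 ± 0.06 in TS_WB (SD, n = 6 each), while the middle probe set read 13.37 ± 0.09 and 9.54 ± 0.22 and the 5' end 13.32 ± 0.06 and 7.81 ± 0.29. The 3' minus 5' difference was thus 0.16 ± 0.07 in TS and 5.69 ± 0.25 in TS_WB. For Gapdh it was -0.44 ± 0.12 in TS and 3.70 ± 0.36 in TS_WB, and here the 3' end was itself lower, at 9.52 ± 0.27 in TS_WB against 13.19 ± 0.11 in TS. The 18S ribosomal RNA control went the other way, with -0.17 ± 0.12 in TS and -3.90 ± 0.19 in TS_WB. Each of these 3 passed an exact permutation test of 6 against 6 arrays (two-sided, p = 0.00216, the smallest that design allows; adjusted over 12 control transcripts, p = 0.00371). The pyruvate carboxylase control, the other mouse transcript read at its ends, passed the same test with the same p but narrowed, from 1.58 ± 0.14 in TS to 0.64 ± 0.09 in TS_WB. Its 5' end averaged 7.105 in both groups, close to the array medians, so a loss of signal at that end could not be seen. The narrowing came from its 3' end, which averaged 8.685 in TS and 7.744 in TS_WB. In NT the beta-actin difference was -0.51 ± 0.10. The 18 hybridisation control probe sets, which read labelled RNA spiked in before hybridisation, were 0.22 to 1.29 higher in TS_WB. These controls move with the comparison between TS and TS_WB, and their part in the differences below was not tested.

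**Figure D1:**
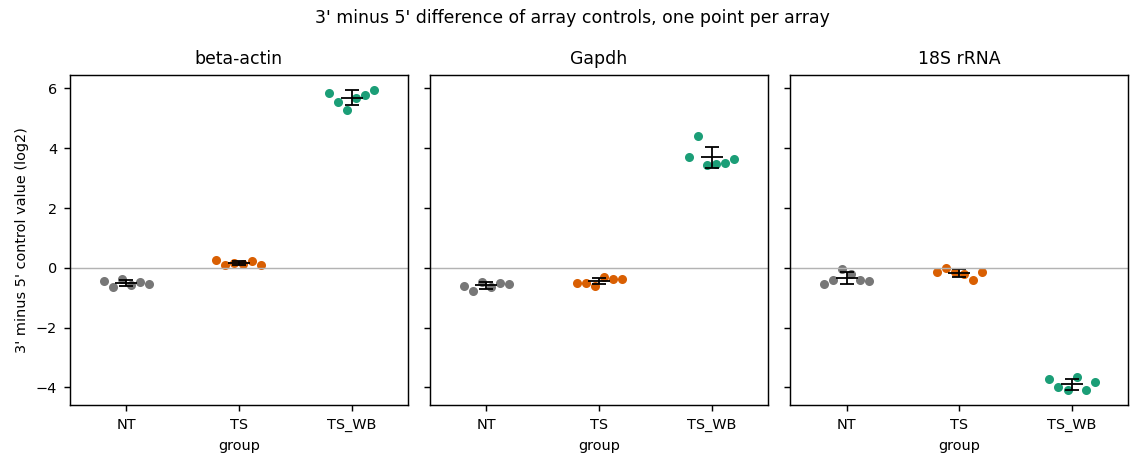
Difference between the 3' and 5' control values (vertical axis, log2) of beta-actin, Gapdh and 18S rRNA in NT, TS and TS_WB skin. Points are arrays, and bars are the mean and SD of 6 arrays. The TS_WB arrays lie apart from all others, with means of 5.69 for beta-actin, 3.70 for Gapdh and -3.90 for 18S rRNA.

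Of the 11946 varying probe sets, 10705 (89.6%) passed the test, 5692 (47.6%) higher and 5013 (42.0%) lower in TS_WB. A pass by itself therefore says little about a gene. Differences of at least 1 were unequal in number, with 1259 probe sets (10.5%) higher and 2733 (22.9%) lower. That split depends on scaling: 31.5% of the large differences were rises as deposited, 41.8% after quantile normalization and 48.6% after centring. Centring here sets each array on the median of its varying probe sets, not on the array medians given above. The median of all differences was 0.09 as deposited, 0.19 after quantile normalization and 0.28 after centring. Correlation over probe sets was 0.957 to 0.986 between TS arrays, 0.951 to 0.990 between TS_WB arrays and 0.585 to 0.685 between arrays of the 2 groups.

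The level of a transcript in untreated skin, which does not enter the difference itself, went along with the direction. When probe sets were ranked by NT mean into 4 equal bins, 14.9% rose by at least 1 and 5.59% fell by at least 1 in the lowest bin, and the median difference there was 0.42. In the highest bin the figures were 4.95% and 39.6%, and the median difference was -0.42. The lowest bin (5.07 to 7.85) spans the array medians, so its probe sets had little room to fall. A probe set that is flat and dim in NT also counts as varying only through a change in TS or TS_WB. How far these limits shape the trend over the bins was not tested.

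**Figure D2:**
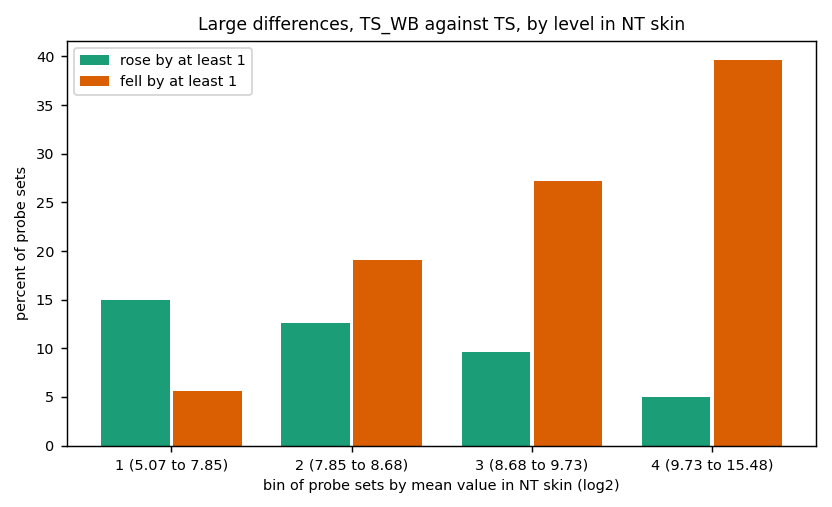
Percent of probe sets (vertical axis) that rose or fell by at least 1 in TS_WB against TS, in 4 equal bins of the 11946 varying probe sets by mean value in NT skin (horizontal axis, log2, with the range of each bin). Large falls grow from 5.59% in the lowest bin to 39.6% in the highest, and large rises shrink from 14.9% to 4.95%. The lowest bin spans the array medians, where there is little room to fall.

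Probe sets of a single gene often disagreed. Of the 2191 genes with 2 or more varying probe sets, 1032 (47.1%) had all differences on the same side of 0. In 1006 genes (45.9%) some probe sets rose and others fell, each past the threshold, whereas in the comparison of TS with NT this was so in 49 genes (2.24%) and 1713 genes (78.2%) kept to the same side, at 5543 probe sets (46.4%) passed and 642 (5.37%) passed with at least 1. The opposite calls could be wide. S100a10, the plasma membrane partner of annexin A2, fell by 7.46 at a probe set that read 13.04 to 13.47 in TS and 5.55 to 5.99 in TS_WB, and rose by 0.53 and 0.90 at its other probe sets. Rps9, a protein of the small ribosomal subunit, fell by 6.02 at a probe set and rose by 0.65 at another. Gas5, a noncoding RNA that hosts small nucleolar RNAs, had 4 probe sets with differences of -5.86, -1.37, 0.34 and 0.89. The fast-muscle troponin Tnni2 fell by 6.29 and 0.17 and rose by 0.47 at its 3 probe sets. Among genes of the epidermal junctions, the gap junction protein Gja1 rose at 5 probe sets, by 0.39 to 0.87, and fell by 1.12 at the sixth. The tight junction protein Cldn1 rose by 0.52, fell by 1.61 and differed by 0.05 without passing at its 3 probe sets, and beta-catenin (Ctnnb1) rose by 0.78 and fell by 2.02 and 2.70. The cell cycle inhibitor Cdkn1a rose by 0.51 and fell by 2.65. For these genes the files give no direction. Gja1 and Ctnnb1 were chosen after their values were seen.

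Weight is given below to genes in which every varying probe set passed in the same direction: 507 rises (23.1% of 2191) and 361 falls (16.5%). Over all varying probe sets 47.6% passed higher and 42.0% lower. Agreement would therefore also be frequent among unrelated probe sets, and by itself it is a weak check. Probe sets of a gene are moreover not independent and can overlap, in which case they agree for that reason alone. At Banf1, for example, 2 probe sets read 5.37 and 5.39 on TS_WB array 1. Without _x_at and _s_at probe sets 380 rises and 291 falls agreed among 1492 genes. Whether it exceeded that frequency was not tested. A rise or fall of at least 1 at every probe set was seen in 39 genes (1.78%) and 140 genes (6.39%). In what follows such genes are said to agree, and an agreeing gene is sized by its smallest difference.

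**Figure D3:**
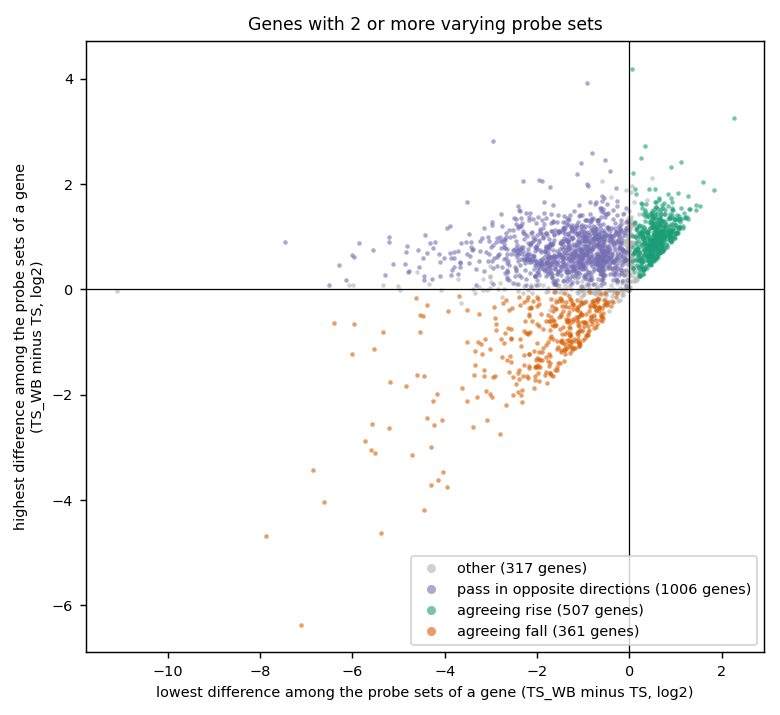
Lowest (horizontal axis) against highest (vertical axis) difference, TS_WB minus TS in log2, among the varying probe sets of each of 2191 genes. The 507 agreeing rises fill the upper right and the 361 agreeing falls the lower left, and the 1006 genes with probe sets that passed in opposite directions fill the upper left.

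The largest agreeing rise was that of Krtap16-3, a keratin-associated protein of the hair shaft, described with its group below. Next came Ackr4, an atypical receptor that takes up the chemokines CCL19 and CCL21. It stood at 6.33, 6.69 and 6.90 in TS (lowest, median and highest array) and at 8.19, 8.42 and 9.03 in TS_WB, and rose by 1.88 (SE 0.13, limma adjusted p = 4e-10) and 1.84 at its 2 probe sets. No TS_WB array overlapped TS, and the NT mean was 6.43. Cebpd, a transcription factor of acute stress and of adipocyte commitment, stood at 8.29, 9.98 and 11.08 in TS and 11.33, 11.70 and 12.42 in TS_WB, and rose by 2.04 (SE 0.45, limma adjusted p = 0.000383) and 1.60. Its relative Cebpb rose by 0.79 and 0.87. Vegfd, a growth factor of lymphatic vessels, stood at 7.86, 8.37 and 8.58 in TS and 9.53, 9.87 and 10.24 in TS_WB, rising by 1.59 and 1.53. The NT mean of Vegfd was 8.43.

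Others of the 12 largest agreeing rises were as follows. Foxo3, a forkhead factor that is held out of the nucleus by AKT, stood at 8.40, 8.67 and 9.10 in TS and 10.04, 10.31 and 10.62 in TS_WB (difference 1.61, SE 0.12, limma adjusted p = 7.2e-10) and rose by 1.44 at its other probe set. Pdpk1, the kinase that activates AKT, rose by 1.52 and 1.29, from 9.57 to 9.83 over the TS arrays to 11.04 to 11.34 over the TS_WB arrays at the first. The tyrosine phosphatase Ptpn2, a brake on JAK and STAT signalling, rose by 1.26 and 1.34. Ndufaf4, an assembly factor of respiratory complex I, rose by 1.31 and 1.53. The ubiquitin ligase Rnf103 rose by 1.22 and 1.36. Lrrc28, Fam102b and Rsbn1 completed the 12 largest, with smallest differences of 1.44, 1.28 and 1.26. In 11 of the 12 no array of one group overlapped the other at any probe set, and Krtap16-3 was the exception.

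The agreeing falls reached larger sizes. Pfdn5, a subunit of the chaperone prefoldin, stood at 12.21, 12.30 and 12.54 in TS and at 5.06, 5.26 and 5.39 in TS_WB (difference -7.12, SE 0.08, limma adjusted p = 3.2e-21), and fell by 6.36 at its other probe set. Uqcrh, the hinge protein of respiratory complex III, stood at 12.91, 13.15 and 13.25 in TS and 5.11, 5.25 and 5.33 in TS_WB, a fall by 7.87, with a fall by 4.68 at the other. Ndufa3, of complex I, fell by 5.39 and 4.63, and the ribosomal protein Rps15 by 4.04 and 6.63. Banf1, a small DNA-bridging protein of the nuclear envelope, fell at 3 of 3 probe sets by 4.19 to 4.46, and Commd3 by 3.95 and 3.75. Many of these TS_WB values lie under the array median, so the sizes are uncertain.

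The other large agreeing falls were smaller than those of Pfdn5 and Uqcrh. The lysosomal protease cathepsin Z (Ctsz) fell by 3.71 to 4.30 at 3 probe sets, and prosaposin (Psap), the precursor of activators of sphingolipid breakdown, by 3.14 and 4.71. Tecr, which completes the elongation of very long chain fatty acids, fell by 3.62 and 4.15. The mitochondrial creatine kinase Ckmt1 fell by 3.47 and 4.04. Glutaredoxin (Glrx), with an NT mean of 11.12 at its less changed probe set, averaged there 12.12 ± 0.21 in TS and 8.69 ± 0.22 in TS_WB (SD, n = 6 each), a fall by 3.43, and fell by 6.86 at the other.

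Aqp3, the water and glycerol channel of the living epidermis, was also higher in TS than in NT. At its brightest probe set it averaged 9.09 in NT, stood at 11.49, 12.23 and 12.87 in TS and at 8.67, 9.06 and 9.90 in TS_WB. The difference was -3.11 (SE 0.24, limma adjusted p = 1e-09), no array of TS_WB overlapped TS, and the other 2 probe sets fell by 4.19 and 5.51.

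Among single-probe-set genes, which have no such check, the largest falls were those of galectin-7 (Lgals7), a keratinocyte lectin, by 6.97, the ATP synthase subunits Atp5l (6.84) and Atp5e (6.27 lower), the translocon subunit Ssr4, by 6.36, and the keratinocyte surface protein Ly6d, by 6.29. Lgals7 ranged from 6.11 to 11.23 over the TS_WB arrays. The largest rises were those of Krtap6-5 by 3.52, Rab32 by 3.13, Ccn2 by 2.91, Krt27 by 2.80 and Prr9 by 2.68. Ccn2 (connective tissue growth factor) stood at 8.86, 9.20 and 10.72 in TS and at 11.37, 12.41 and 13.36 in TS_WB, with an NT mean of 9.16. Rab32, a GTPase of melanosome transport, stood at 5.08 to 7.81 in TS.

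For gene groups, each gene is represented by its brightest varying probe set, judged over all arrays, those of TS_WB included. By that measure 3636 of 7443 genes rose (48.9%), 2973 fell (39.9%), 791 (10.6%) rose by at least 1 and 1522 (20.4%) fell by at least 1, with a median difference of 0.15. Because TS_WB values enter the choice, it can favour the probe set that fell less where those of a gene disagree. At Rps18 the brightest probe set differed by 0.09 and another by -6.50. The reverse was also seen: at Rpl41 the brightest differed by -4.82 and another by 0.83. The effect of this choice on the group counts and medians was not tested. Fewer cells of a type and less RNA per cell cannot be told apart in whole skin. Groups also differ in level: in the highest NT bin (9.73 to 15.48), 39.6% of probe sets fell and 4.95% rose by at least 1. Lists of bright genes are to be set beside those shares too. The macrophage, dermal matrix and respiratory lists, for example, averaged 10.30 to 10.84, 10.76 to 10.93 and 11.19 to 11.40 over the NT arrays.

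Within the stress keratins and alarmins of wounded epidermis, 15 of 23 varying members fell, 11 of them (47.8%) by at least 1, and none rose as deposited, while 2 rose after quantile normalization or centring. The median difference was -1.03, and it stayed at -0.84 or lower in both scalings. Krt6a fell at 3 of 3 probe sets. At the brightest it stood at 12.42, 13.10 and 13.73 in TS and at 9.77, 10.71 and 11.83 in TS_WB (difference -2.34, SE 0.29, limma adjusted p = 6.6e-07), against an NT mean of 11.75, and the others fell by 6.01 and 1.22. Krt16 stood at 12.51, 13.74 and 15.00 in TS and 7.08, 8.39 and 9.69 in TS_WB, a fall by 5.40 (SE 0.48, limma adjusted p = 7.4e-09) to values around the NT mean of 9.33. Krt17 fell by 4.40, from 11.95 to 12.57 over the TS arrays to 7.43 to 8.74 over the TS_WB arrays. The groups did not overlap for any of these 3 keratins.

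Krt6b did not follow. It stood at 13.66, 14.41 and 15.25 in TS and 13.51, 14.85 and 15.26 in TS_WB, with a difference of 0.15 (SE 0.40, limma adjusted p = 0.74), while its NT mean was 7.56. Krt6a and Krt6b are near-identical in sequence, so their probe sets may not separate them. Members of the interleukin-1 family fell: Il1f9 (interleukin-36 gamma) stood at 10.13, 10.58 and 11.07 in TS and 6.60, 6.84 and 7.31 in TS_WB (difference -3.69), and Il1rn, the interleukin-1 receptor antagonist, was an agreeing fall by 1.96 and 1.75. S100a9 fell by 3.33 with overlapping groups, and its partner S100a8 differed by -0.48 (SE 0.77, limma adjusted p = 0.57). The siderophore-binding Lcn2 fell by 3.08. Sprr2h, Sprr2d and the stefin Stfa3, which stood 4.48, 4.63 and 2.74 higher in TS than in NT, differed between TS_WB and TS by 0.04, 0.69 and 0.03, none past the test as deposited. Sprr2d passed upward after quantile normalization (1.01) and after centring (0.88). Sprr1b fell by 1.18, a call lost after quantile normalization (-0.84).

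Keratins of the basal layer fell, while the main pair of the suprabasal layers did not pass. Krt14, the type I keratin of basal cells, was an agreeing fall at 3 of 3 probe sets, by 2.88 (SE 0.17, limma adjusted p = 3.8e-11), 1.83 and 4.84. At the brightest it stood at 13.77, 14.18 and 14.44 in TS and 10.67, 11.16 and 11.91 in TS_WB, and the groups did not overlap. Its partner Krt5 stood at 12.77, 13.29 and 13.61 in TS and 9.22, 9.95 and 10.86 in TS_WB, a fall by 3.20. Krt1 stood at 13.50, 13.90 and 14.00 in TS and 13.67, 13.88 and 14.01 in TS_WB, and Krt1 and Krt10 differed by 0.00 (SE 0.16) and 0.13 (SE 0.09), neither past the test. Both passed upward after quantile normalization, with 0.36 and 0.80. Krt10 also passed after centring (0.32). Krt77, a keratin of the upper epidermis, differed by -0.40 and did not pass, but did so without TS_WB array 6 (-0.55, limma adjusted p = 0.026). In the basal adhesion list 7 of 13 varying members rose and 5 fell; integrin beta 1 (Itgb1) agreed downward, by 1.81, 1.18 and 1.96, and 5 of the 6 members with several probe sets were opposite.

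**Figure D4:**
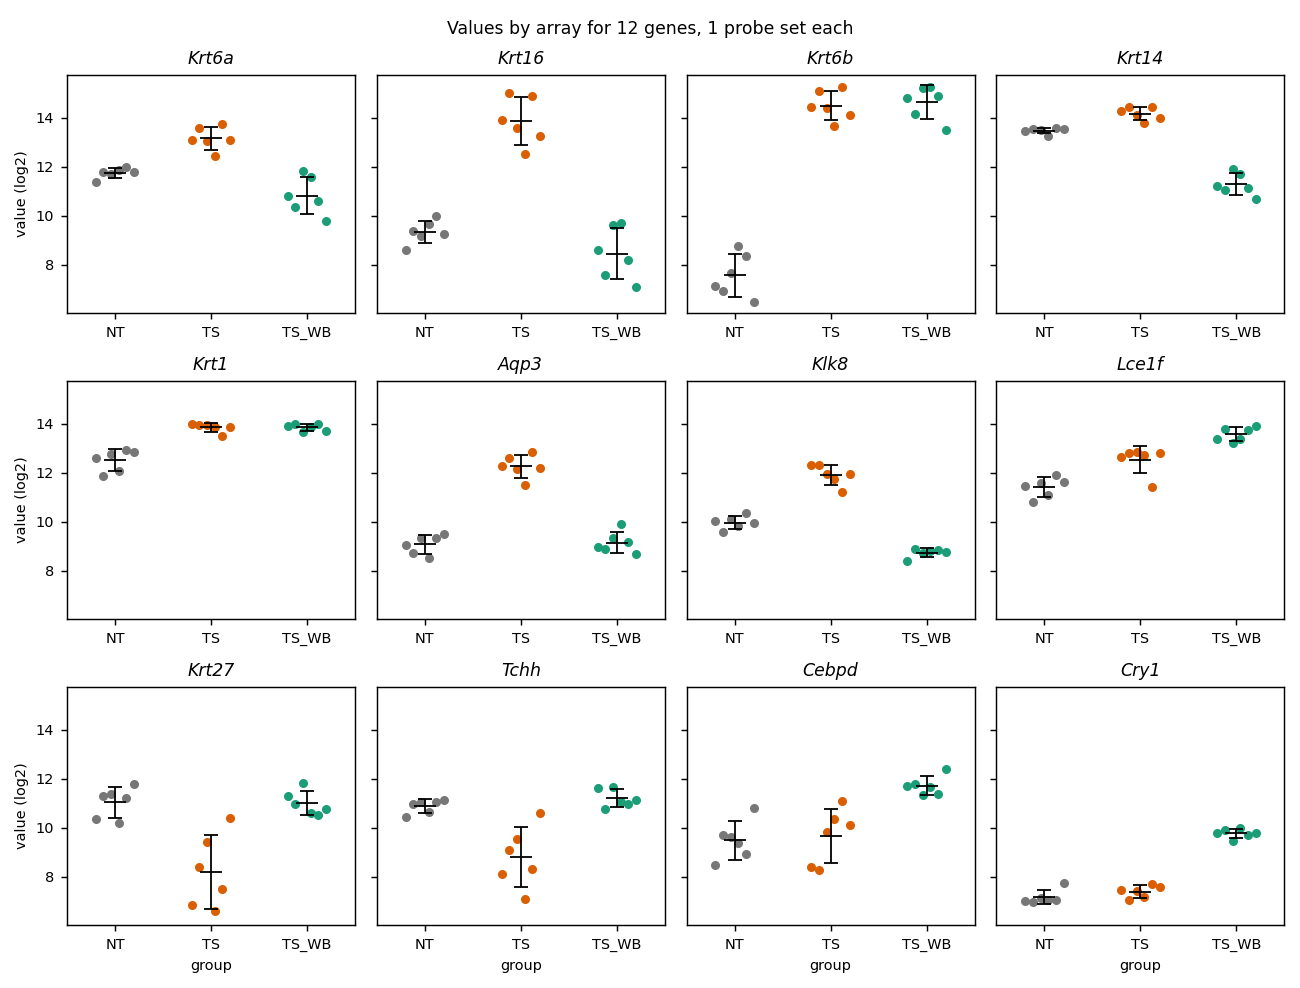
Values by array (vertical axis, log2) of 12 genes in NT, TS and TS_WB skin, each at its brightest varying probe set; bars are the mean and SD of 6 arrays. Krt16, Krt14, Aqp3 and Klk8 are lower in TS_WB than in every TS array, Krt6b and Krt1 overlap, and Krt27, Tchh, Cebpd and Cry1 are higher.

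Genes of the cornified envelope were split. Of 41 varying members 14 rose and 18 fell, 9 (22.0%) fell by at least 1 and 3 (7.32%) rose by at least 1, against 20.4% and 10.6% of all genes. The median difference was -0.09, and after quantile normalization 10 members rose by at least 1. The Lce1 genes, small late envelope proteins encoded side by side, made up much of the rising part: 9 of 11 rose, with a median difference of 0.84. Lce1i stood at 11.40, 12.88 and 13.18 in TS and 13.57, 14.01 and 14.40 in TS_WB (difference 1.31, SE 0.28, limma adjusted p = 0.00028). Lce1f rose by 1.04 and 0.83 and Lce1a1 by 0.53 and 0.60 at their pairs of probe sets, while Lce1l differed by 0.15 without passing and Lce1m fell by 0.90, a call lost after quantile normalization (-0.81) and when any of several arrays was left out. TS array 5 was the lowest TS array at most of these genes. Without it the same count, 9 of 11, rose, the median difference was 0.61, Lce1i rose by 1.05, Lce1m fell by 1.27, and the second probe set of Lce1f no longer passed (0.52, limma adjusted p = 0.09). Lce1 genes resemble each other closely, so their probe sets may overlap. Repetin (Rptn) rose by 0.95 and filaggrin (Flg) by 0.61, and hornerin (Hrnr) differed by 0.01. The major envelope protein loricrin (Lor) gave 0.54, 1.69 and 0.37 at 3 probe sets, the last not past the test as deposited but past it after quantile normalization (0.81) and centring (0.56).

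Among the members that fell, the largest differences were those of cornifelin (Cnfn), Lypd3 and Lce3c. Cnfn, an envelope protein, stood at 9.90, 10.16 and 10.66 in TS and 6.34, 6.74 and 7.40 in TS_WB, a fall by 3.45 (SE 0.18, limma adjusted p = 5.9e-12). Lypd3 fell by 2.90 and Lce3c by 2.76, the latter with overlapping groups. Transglutaminase 1 (Tgm1), which cross-links the envelope, stood at 9.28, 9.59 and 9.79 in TS and 7.34, 7.66 and 7.89 in TS_WB, a fall by 1.89 (SE 0.11, limma adjusted p = 2.1e-11). Caspase 14 (Casp14), which processes filaggrin, stood at 10.24, 11.12 and 11.63 in TS and 8.47, 9.12 and 9.33 in TS_WB, a fall by 2.09. Tgm3 fell by 0.84 with overlapping groups. The epidermal progenitor marker Plet1 was an agreeing fall by 2.12 and 3.53.

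Proteases of desquamation and their inhibitors were the group with the largest share of large falls: 16 of 25 varying members (64.0%) fell by at least 1 and 0 rose by at least 1, against 20.4% and 10.6% of all genes. The median difference was -1.46, against 0.15 over all genes. Only 4 members had several varying probe sets, of which 1 agreed downward and 3 were opposite. Serpinb5, counted as a large fall by its brightest probe set (-1.28), differed by 1.33 at another. Klk8, a kallikrein of the granular layer, stood at 11.20, 11.95 and 12.31 in TS and 8.40, 8.78 and 8.90 in TS_WB (difference -3.17, SE 0.17, limma adjusted p = 6.3e-12), below its NT mean of 9.97. Klk6 fell by 2.72, Klk7 by 1.46 and Klk5 by 1.11, the last 2 being the proteases best known for cutting corneodesmosomes. Klk13 was the exception among kallikreins: it averaged 11.05 ± 0.62 in TS and 11.94 ± 0.52 in TS_WB (SD, n = 6 each) and rose by 0.89 with overlapping groups. Among inhibitors, Wfdc12 fell by 3.63, to 8.63 ± 0.35 in TS_WB (SD, n = 6), the serpin Serpinb12 was an agreeing fall by 3.13 and 0.93, and Spink5, the inhibitor of these kallikreins that is lost in Netherton syndrome, rose by 0.53.

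Barrier lipid genes gave no single direction. Of 27 varying ceramide and barrier lipid genes 10 rose and 13 fell, 12 of each after quantile normalization, and 7 of the 11 with several probe sets were opposite. Alox12b, which oxidises the linoleate of acylceramides, fell by 1.49, whereas the lipid transporter Abca12 rose by 0.71 and the ceramide synthase Cers3 by 0.69. Abhd5, a lipase coactivator, agreed downward by 0.57 and 1.66. In cholesterol synthesis 8 of 16 varying members rose and 7 fell. Cyp51 was an agreeing rise by 1.38 and 0.51 and Idi1 by 1.09 and 0.85, Mvd an agreeing fall by 1.46 and 0.96, and squalene epoxidase (Sqle) stood at 10.54, 10.61 and 11.08 in TS and 7.85, 8.32 and 8.54 in TS_WB, a fall by 2.49.

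Hair follicle genes were the group with the largest share of large rises. Of 34 varying members 19 rose and 5 fell, and 14 (41.2%) rose by at least 1 against 10.6% of all genes, with a median difference of 0.63. The same number, 14, rose by at least 1 after quantile normalization and after centring. The mean of the 34 ranged from 7.07 to 9.10 over the TS arrays and from 8.45 to 9.04 over the TS_WB arrays, with NT arrays at 8.89 to 9.58. TS array 6 was thus above all TS_WB arrays, and the TS arrays 1 and 4 were the lowest. Krt27, an inner root sheath keratin, stood at 6.59, 7.95 and 10.42 in TS and 10.52, 10.86 and 11.83 in TS_WB, a rise by 2.80 (SE 0.54, limma adjusted p = 1e-04), and its NT mean was 11.04. Trichohyalin (Tchh), which hardens the inner root sheath, stood at 7.10, 8.71 and 10.61 in TS and 10.79, 11.09 and 11.65 in TS_WB (difference 2.41), and Prr9 at 7.96, 9.03 and 11.41 and at 11.55, 11.84 and 12.69 (difference 2.68). Krtap16-3 rose by 2.26 and 3.25, but its groups overlapped, with TS at 3.80 to 9.06 and TS_WB at 7.73 to 11.41 at the brighter probe set. Krtap6-5, Krtap8-1, Krtap9-3 and the hair keratin Krt86 rose by 3.52, 2.32, 2.16 and 2.47, each with overlapping groups. At the probe sets of these 8 genes TS minus NT was -2.84 to -1.56.

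The sequences before the starts of these genes were compared. The 100 bases before the start of 6 rising hair genes are shown because the genes moved together, taken from RefSeq (GRCm38.p6), with TATAAA in capitals.
Krtap6-5: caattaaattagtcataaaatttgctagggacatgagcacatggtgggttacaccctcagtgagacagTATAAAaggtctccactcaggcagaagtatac
Krtap16-3: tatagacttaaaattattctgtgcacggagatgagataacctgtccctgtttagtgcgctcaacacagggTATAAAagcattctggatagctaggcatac
Krtap8-1: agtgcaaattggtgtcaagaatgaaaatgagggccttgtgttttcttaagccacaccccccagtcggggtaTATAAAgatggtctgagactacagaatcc
Krtap9-3: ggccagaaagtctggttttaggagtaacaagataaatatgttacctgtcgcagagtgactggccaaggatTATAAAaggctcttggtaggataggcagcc
Krt27: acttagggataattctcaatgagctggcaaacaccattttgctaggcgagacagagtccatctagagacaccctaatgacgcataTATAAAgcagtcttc
Prr9: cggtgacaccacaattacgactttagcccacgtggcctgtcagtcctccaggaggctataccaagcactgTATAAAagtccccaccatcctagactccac
All lie on the minus strand and are written 5' to 3' along the gene: Krtap6-5 at chr16:89047900-89047999, Krtap16-3 at chr16:88962874-88962973, Krtap8-1 at chr16:89487953-89488052, Krtap9-3 at chr11:99598107-99598206, Krt27 at chr11:99351119-99351218 and Prr9 at chr3:92123948-92124047. TATAAA begins 29 to 32 bases before the start in 5 of the 6 and 15 bases before it in Krt27. Of the 14 hair genes that rose by at least 1, 13 had a promoter in the RefSeq table, and 12 of these held TATAAA on either strand. Of the other 20 varying hair genes 12 had a promoter there, and 6 of these held it. A gene was counted where any of its windows matched. The motif was found in 5.56% of all 32851 windows of that length, a share of single windows and not of genes. A match describes the letters and says nothing about what binds there.

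Among other cell types of the skin, listed genes fell more often than they rose in several and were split in others. Of 12 varying mast cell genes 9 fell and 2 rose, with a median difference of -1.58. Of these genes 7 (58.3%) fell by at least 1 and none rose by at least 1. The only one with several probe sets, Hdc, was opposite (0.74 and -0.57). Mcpt4, a mast cell chymase, stood at 10.06, 10.60 and 10.91 in TS and 6.18, 6.31 and 6.41 in TS_WB (difference -4.21, SE 0.16, limma adjusted p = 5.9e-14), and the chymase Cma1 fell by 3.20. Of 16 Langerhans and dendritic cell genes 8 (50.0%) fell by at least 1, with a median of -1.49. The Langerhans lectin Cd207 stood at 8.47, 9.03 and 9.53 in TS and 6.43, 7.07 and 7.46 in TS_WB, a fall by 2.12, and H2-Ab1, a class II antigen presentation chain, was an agreeing fall at 3 probe sets by 1.47 to 2.06. Its partner chain H2-Aa gave -4.32, 0.36, 0.31 and 0.88, with the last 2 not past the test. Of 33 macrophage genes 18 fell and 8 rose, and 13 (39.4%) fell by at least 1, among them lysozyme (Lyz2) by 3.51. That share is near the 39.6% of probe sets in the highest NT bin, the range in which the list averaged. Clec4n agreed downward by 2.48 and 4.07, and 3 of the 7 macrophage genes with several probe sets were opposite. Csf1r, the growth factor receptor of these cells, rose by 0.58, fell by 2.16 and differed by 0.04 at its 3 probe sets. Of 43 skeletal muscle genes 24 (55.8%) fell by at least 1, with a median of -1.47, among them the calcium buffer parvalbumin (Pvalb), by 4.16. Of 18 adipocyte genes 11 fell and 4 rose, and 8 (44.4%) fell by at least 1, including adiponectin (Adipoq), by 2.41. Of the 6 adipocyte genes with several probe sets, however, 2 agreed upward (Cebpd and Cebpb), 1 agreed downward (Slc2a4) and 1 was opposite. Only 1 of the 12 muscle genes with several probe sets agreed, Mybpc1, downward at 3 probe sets. Of 9 neutrophil genes 5 fell and none rose. The remaining cell types had few varying genes. Of 10 endothelial and blood genes 4 rose and 4 fell, with a median difference of 0.17. Of 8 melanocyte genes 4 rose and 3 fell, with a median of 0.23, and of 6 nerve and Schwann cell genes 3 rose and 2 fell, with a median of -0.01. Of 6 B and plasma cell genes 2 rose and 2 fell, with a median of 0.06, and of 7 T and NK cell genes 1 rose and 4 fell, with a median of -0.13.

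Matrix genes of the dermis fell more often than they rose: 24 of 43 against 13, with 16 falls (37.2%) and 1 rise (2.33%) of at least 1 and a median of -0.50. These shares lie near the 39.6% and 4.95% of probe sets in the highest NT bin, the range in which the list averaged. The matrix protein Sparc was an agreeing fall, standing at 13.73, 13.98 and 14.23 in TS and 12.14, 12.82 and 12.94 in TS_WB at one probe set (difference -1.34) and falling by 2.65 at the other. Lox, which cross-links collagen, agreed downward by 1.73 and 2.04, fibulin 1 (Fbln1) by 2.14 and 2.32 and the gelatinase Mmp2 by 1.28 and 0.86.

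Of 71 varying respiratory chain and ATP synthase genes 31 rose and 33 fell, with 29 falls (40.8%) and 4 rises (5.63%) of at least 1. Of the 39 with several probe sets, 22 were opposite, 7 agreed downward and 2 upward. Ndufa7 fell at 5 of 5 probe sets, by 2.88 to 5.73. Of 43 ribosomal protein genes 13 rose and 25 fell, 20 of them (46.5%) by at least 1, with 7 agreeing falls, 2 agreeing rises and 7 opposite genes among the 20 with several probe sets. The medians of the respiratory and ribosomal lists were -7.2e-05 and -0.79.

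In the circadian clock list 8 of 17 varying members rose and 5 fell, a share of rises close to the 48.9% of all genes. Rises of at least 1 were seen in 4 (23.5%, against 10.6% of all genes), and the median was 0.25. One of these 4, Csnk1d, rose by 1.46 at its brightest probe set but differed by -1.86 at another. Of the 5 clock genes with several probe sets 3 were opposite. Cry1, a repressor of the clock, stood at 7.06, 7.43 and 7.72 in TS and at 9.47, 9.81 and 9.99 in TS_WB, a rise by 2.38 (SE 0.13, limma adjusted p = 1.8e-11), and its partner Per2 stood at 6.52, 6.76 and 7.73 and at 8.01, 8.49 and 8.83 (difference 1.61). The cell cycle kinase Wee1 rose by 1.65, and Clock itself agreed upward by 0.91 and 0.43. Nr1d1, which represses Arntl, fell by 1.15. The time of day at which skin was taken is not given in the labels. In the list of immediate early and heat shock genes 20 of 38 rose and 11 fell, again with a share of rises near that of all genes. There were 8 rises (21.1%) and 7 falls (18.4%) of at least 1, and the median was 0.55. After quantile normalization 14 rose by at least 1. Of the 14 genes of this list with several probe sets 8 were opposite. Ddit4, a stress-induced inhibitor of mTORC1, stood at 9.11, 10.25 and 11.51 in TS and 12.10, 12.50 and 12.67 in TS_WB, a rise by 2.15, and the kinase Sgk1 rose by 1.55 without overlap of the groups. Egr2 agreed upward by 0.61 and 0.95, and Btg2, an antiproliferative early gene, downward by 2.40 and 1.94. Nfkbia, the inhibitor of NF-kappa B, rose at 4 of 5 probe sets, by 0.61 to 2.47, and fell by 0.53 at the other.

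Of 32 varying cytokine and chemokine genes 5 rose and 17 fell, 8 of them (25.0%) by at least 1, against 20.4% of all genes. Il1b fell by 1.00 with overlapping groups, the chemokine Ccl9 agreed downward by 1.13 and 5.52, and the barrier cytokine Tslp differed by 0.24 (limma adjusted p = 0.27). Stat6, the transducer of interleukin-4 signals, was an agreeing fall by 1.35 and 2.02. Of 45 cell cycle genes 12 rose and 18 fell, 7 (15.6%) by at least 1, and after quantile normalization 18 rose and 15 fell. The ribonucleotide reductase subunit Rrm1 agreed downward, by 1.59 and 1.72.

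In the other groups the numbers of rises and falls were 2 and 5 of 12 for the keratins of the basal and suprabasal layers, 13 and 10 of 26 for desmosomes and tight junctions, and 5 and 3 of 9 for water and solute transport. They were 8 and 11 of 22 for fatty acid synthesis and the sebaceous gland, 7 and 12 of 22 for PPAR targets and fatty acid oxidation, and 4 and 12 of 20 for prostaglandins and leukotrienes. For antioxidant and NRF2 genes, which detoxify reactive compounds, 7 of 28 rose and 19 fell, with a median of -0.69. The counts were 6 and 9 of 18 for matrix-degrading enzymes, 8 and 12 of 20 for TGF beta and YAP responses, 9 and 11 of 26 for interferon responses, 3 and 3 of 11 for type 2 and itch genes, and 1 and 1 of 14 for liver genes. The mean of the liver list ranged from 7.399 to 14.1 over the NT arrays. It was 7.155 to 7.265 over TS and 6.832 to 7.071 over TS_WB arrays. Liver genes thus varied mostly among NT arrays, a spread that enters their tests, and the few liver calls say little. Such values also enter the NT means and bins.

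**Figure D5:**
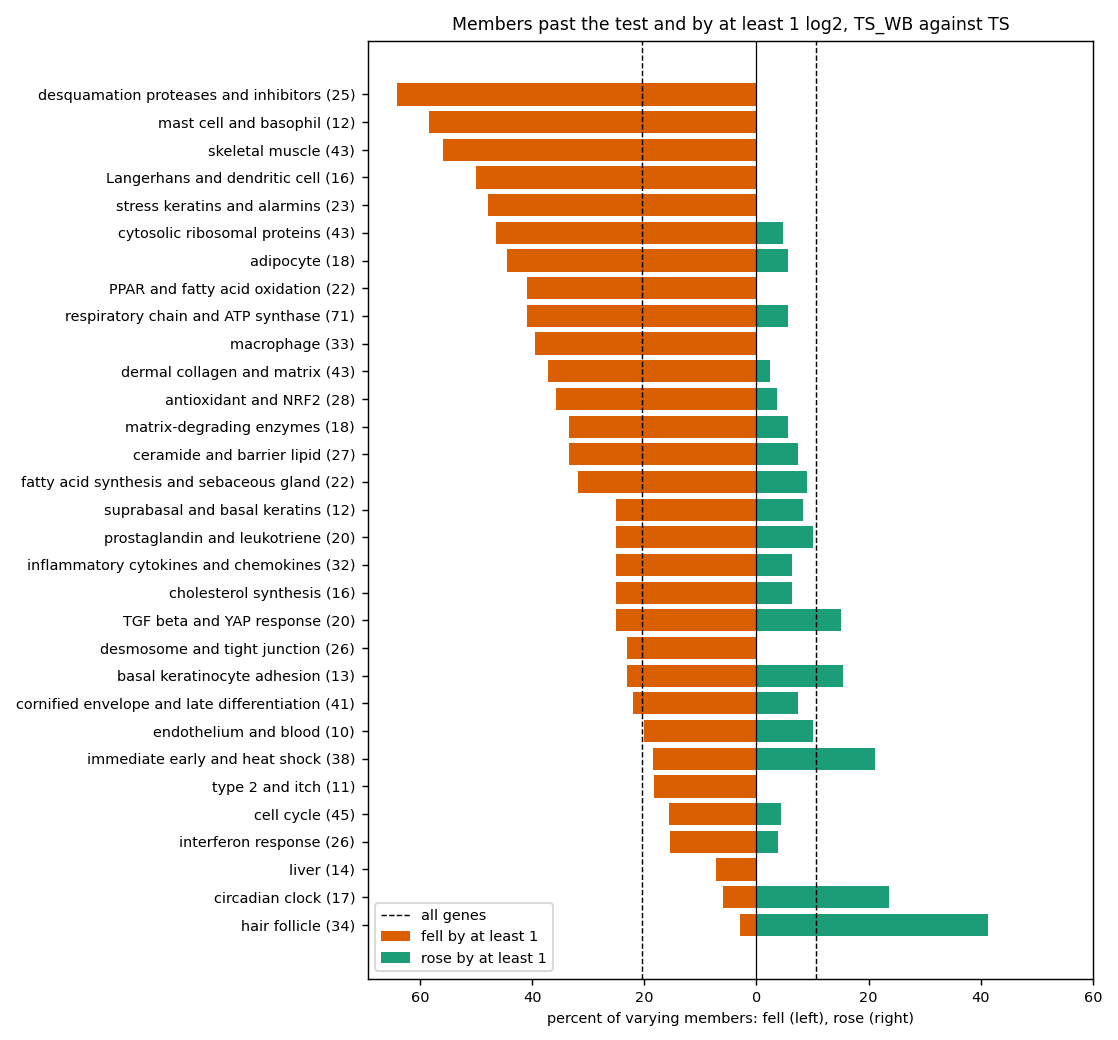
Percent of varying members (horizontal axis) that passed the test and fell (left) or rose (right) by at least 1 in TS_WB against TS, for each gene group with 10 or more varying members (their number in brackets); dashed lines mark the shares over all 7443 genes, 20.4% and 10.6%. Desquamation proteases have the longest bar to the left (64.0%) and hair follicle genes the longest to the right (41.2%).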

How the data were processed

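RNA (100 ng per array) was labelled by the standard Affymetrix procedure, as the protocols say. The deposited values were read as log2, with 1 for each probe set on each array; the summarising and normalization that the authors used are not given in the sources used here. TS_WB and TS arrays were grouped by title. A linear model without covariates was fitted to all 18 arrays (limma 3.58.1, lmFit then eBayes, under R 4.3.3; two-sided tests) over the 11946 varying probe sets, and control transcripts by exact permutation. Of the varying probe sets 10643 have 1 gene symbol, 443 several and 860 none, and genes were named only from the first. The number of arrays limits the precision.

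Named genes are a part of those given by this rule: the 12 largest agreeing rises and falls, up to 3 members per list, a fixed list of barrier and inflammatory genes, the 4 widest opposite genes and the 5 largest rises and falls of single-probe-set genes. Further members of the lists were named after their values were seen. Members and all 37 lists were chosen with earlier results of these data known. Motifs were counted in the RefSeq promoter table. Transcript length and scanner files were not analysed here.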

Additional observations from a re-analysis of the deposited data

Results flagged for a closer look

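Single arrays stood apart from the other 5 of their group in 28 of the 264 checks made (129 genes at their brightest probe set and 3 controls, in TS and in TS_WB; Dixon's test, which chance alone passes in about 1 of 20 groups). TS array 5 accounted for 12 of them. It was low in genes of the upper epidermis, with 11.46 for Lce1a1, 11.41 for Lce1f, 11.40 for Lce1i, 8.50 for Lce1l, 12.43 for Lor, 11.71 for Flg, 11.03 for Hrnr, 13.50 for Krt1 and 10.10 for Klk5, and in Lrrc28 (8.37). It was high in Lcn2 (12.57, against a TS median of 9.89) and in Per2 (7.73). TS array 6 was high in Rab32 (7.81, against a median of 5.15) and low in Clock (8.29), and TS array 4 low in Gja1 (11.85) and Ssr4 (12.36).

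Among the extract arrays, TS_WB 6 was low in Rptn (13.16), Stfa3 (12.49), Idi1 (11.26) and Rrm1 (7.13) and high in Nfkbia (13.72). TS_WB 3 was high in Krt17 (8.74), Lce3c (9.23, against a TS_WB median of 7.50), Cebpb (12.50) and Ndufaf4 (10.13), TS_WB 1 low in Klk8 (8.40) and Mybpc1 (7.89), and TS_WB 2 high in the 3' minus 5' difference of Gapdh (4.41, against a median of 3.57).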

How the results depend on the processing

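The counts of probe sets and genes stayed within 1.5 times under the scalings, models, filters and left-out arrays tried, except for these. With all 45037 probe sets in the fit 21055 passed, 12668 higher and 8387 lower. After centring on the medians of the varying probe sets 2158 probe sets rose by at least 1. Without _x_at and _s_at probe sets 588 of 1492 genes passed in opposite directions. Leaving out 1 array gave 10617 to 10684 probe sets passed and 861 to 874 agreeing genes, and a beta-actin 3' minus 5' difference between TS_WB and TS of 5.48 to 5.61. With the replicate number as a block, 869 genes agreed and 995 were opposite; the numbers did not pair the arrays, as same-numbered arrays correlated at -0.268 to 0.048 in their deviations. Of 2579 gene values recomputed for the 129 genes, 23 lost their call, 13 gained one and none turned. Of 148 list medians 62 moved by more than 1 SD between arrays. Transcript length could not be related to the differences, since no lengths were used here. The lack of a background measure limits sizes near the array median.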
